A study of Citrus x aurantiifolia with 4 samples.

Results

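The genes described here are those on which the transgenic leaf libraries of acid lime disagreed with each other while their mean stayed close to wild type. The series compares leaf RNA of 2 genotypes of the cultivar Pramalini of acid lime, Citrus x aurantiifolia. The transgenic plants (TG, 2 libraries, TG 1 and TG 2) tested positive by PCR and overexpress a trypsin inhibitor of Putranjiva roxburghii. The other plants are labelled wild type (WT, 2 libraries, WT 1 and WT 2), and all 4 libraries come from leaves. The labels give neither plant age, nor the promoter of the transgene, nor whether the libraries of a genotype come from different plants or lines, so the spread between them may be technical.

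Genes were chosen by their measured values. The mean of TG had to lie within 2-fold of the mean of WT, and the absolute log2 ratio of TG 2 to TG 1 had to exceed 1.5. Both conditions were set on the authors' gene values, which are TPM (a level that allows for the length of the transcript and the depth of the library) with a TMM scaling factor per library, called TMM-scaled TPM here. On reads summed per gene, at least 200 reads over the TG libraries, at least 20 in each of the 4 libraries and a highest-to-lowest CPM (reads divided by the library's total in the table, on a common scale) of at least 2 were required. Of 81380 genes in the assembly, 15048 met the read minimums and 12039 also had genotype means within 2-fold. Of these, 301 passed the limit on the TG ratio, and 8 of the 301 failed the CPM condition. The remaining 293 genes are 2.43% of the 12039. They consist of 187 genes with the higher value in TG 1 (TG 1-high) and 106 with the higher value in TG 2 (TG 2-high). All 293 passed the filter on low counts of the genotype test below.

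Trypsin inhibitors are proteins that bind and block trypsin-like serine proteases, and plants accumulate them against feeding insects. A leaf RNA library samples the mRNA of many cell types together, and in such bulk RNA fewer cells of a type and less RNA per cell cannot be told apart. The IDs have the form that the Trinity assembler gives to a read cluster, the genes within it and the isoforms of each gene. The files pair none of these IDs with a gene name, and 0 matched the table of the key lime assembly Mxlime_USDA_v1, so gene functions, leaf markers and the introduced gene were not looked up, and no sequence is shown.

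The read total was 17694540 in TG 1, 16062327 in TG 2, 13510175 in WT 1 and 17357250 in WT 2. Over the 12039 genes the median absolute log2 difference was 0.29 between the TG libraries and 0.20 between the WT libraries. The 10 most abundant genes held 12.6% of the signal in TG 1 and 11.01% in TG 2, against 9.88% in WT 1 and 9.12% in WT 2. The part of this unequal concentration in the results below was not tested.

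The TG 1-high genes had a median value of 46.7 in TG 1 and 10.4 in TG 2, against 31.1 in WT 1 and 20.9 in WT 2 (TMM-scaled TPM). Both WT medians thus lay between the TG medians. The median fold between the TG libraries was 3.74, and the largest was 32.9. In 126 of the 187 genes TG 1 lay above both WT libraries and TG 2 below both. In 32 genes TG 1 lay above and TG 2 within the range of the WT libraries, and in 23 genes TG 1 lay within and TG 2 below. The remaining 6 genes had both TG values below both WT values, an order found for 24.9% of the 12039 genes. The typical departure was of like size on both sides. The median log2 ratio to the WT mean was 0.99 in TG 1 and -1.04 in TG 2, and TG 1 was the farther library in 92 genes and TG 2 in 95.

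The TG 2-high genes showed the opposite order. Their median value was 7.30 in TG 1 and 28.6 in TG 2, against 18.2 in WT 1 and 19.4 in WT 2. The median fold between the TG libraries was 3.75, and the largest was 15.5. TG 1 lay below and TG 2 above both WT libraries in 74 of the 106 genes. In 22 genes TG 1 lay below and TG 2 within the range of the WT libraries, in 8 genes TG 1 lay within and TG 2 above, and in 2 genes both TG values lay below both WT values. Here TG 1 was more often the farther library. The median log2 ratio to the WT mean was -1.34 in TG 1 and 0.71 in TG 2, and TG 1 was farther from it in 71 of the 106 genes. These positions are partly set by the choice of genes, which keeps the TG mean near the WT mean. Where the genotype means are equal, the lower TG library always lies farther from the WT mean on the log2 scale. The median log2 ratio of the TG mean to the WT mean was -0.0047 in TG 2-high and 0.36 in TG 1-high genes.

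**Figure D1:**
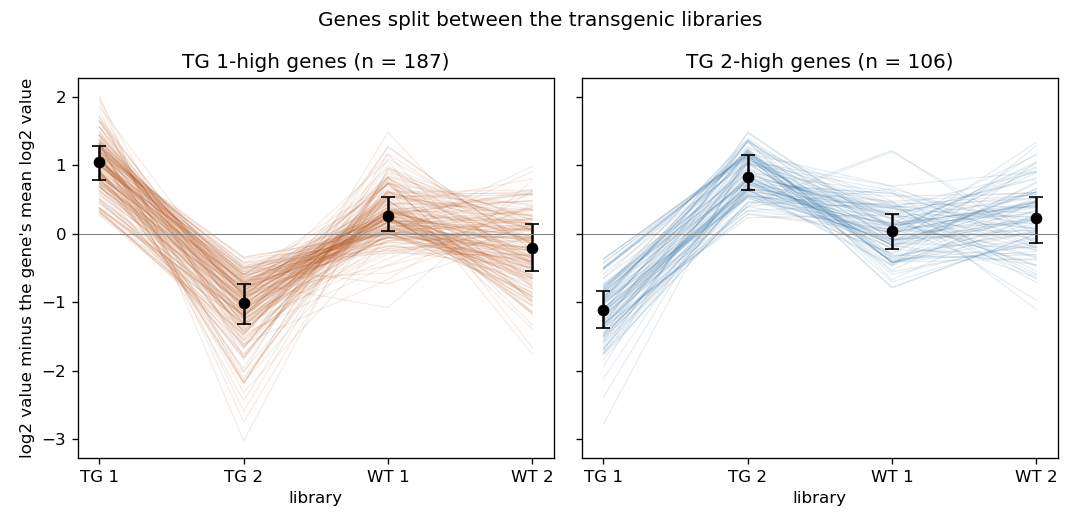
Log2 value of each split gene in the 4 libraries, minus the gene's own mean log2 value over the libraries (vertical axis), for the 187 TG 1-high genes (left) and the 106 TG 2-high genes (right). Thin lines join the values of a gene, and black points with bars give the median and quartiles. The WT medians sit between the TG medians, and in the left panel that of WT 1 is above that of WT 2.

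The balance of directions depended on the scaling. With TMM-scaled TPM 63.8% of the split genes were TG 1-high. When the ratio and the genotype means were taken from CPM of summed reads without further scaling, the genes numbered 143 TG 1-high and 171 TG 2-high, or 45.5% TG 1-high. With TMM factors applied to the CPM the numbers were 190 and 101, and 218 of the 293 genes were among them. Over the 12039 genes the median log2 ratio of TG 2 to TG 1 was -0.02 by TMM-scaled TPM and 0.15 by CPM. Of the 293 genes, 194 were also chosen by CPM, all in the same direction.

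A set of 4 genes illustrates the split, 2 in each direction. Each direction is represented by the gene with the most reads and by the one with the largest CPM ratio. TRINITY_DN26875_c0_g1, the most read TG 1-high gene, had a value of 1089 in TG 1 and 269 in TG 2, against 850 in WT 1 and 383 in WT 2. Its reads numbered 37174 and 9038 in TG 1 and TG 2, and 20974 and 12478 in WT 1 and WT 2. Library 1 was the higher one in both genotypes, with a log2 ratio of library 2 to library 1 of -2.02 in TG and -1.15 in WT. The genotype means of 679 ± 580 in TG and 617 ± 330 in WT (SD, n = 2) were nearly equal, and each SD was over 5 times larger than their difference.

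TRINITY_DN22980_c0_g4 had the largest ratio of all. Its value was 89.0 in TG 1 and 2.70 in TG 2, against 42.5 in WT 1 and 22.8 in WT 2. It was assembled as a single isoform with 1329 and 43 reads in TG 1 and TG 2, and 566 and 396 reads in WT 1 and WT 2. The log2 ratio of TG 2 to TG 1 was -5.04 by value and -4.81 by CPM, with a counting interval of -5.29 to -4.37 (95%, exact Clopper-Pearson, counting error only). TG 1 was thus the highest and TG 2 the lowest library, and WT 1 was again above WT 2.

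TRINITY_DN23722_c0_g1, the most read TG 2-high gene, had a value of 1639 in TG 1 and 4702 in TG 2, against 2423 in WT 1 and 3305 in WT 2. It was covered by 28555 and 78406 reads in TG 1 and TG 2, and by 36124 and 63594 reads in WT 1 and WT 2. Library 2 was the higher one in both genotypes, by 2.87-fold in TG and 1.36-fold in WT. With a log2 ratio of 1.52 this gene lies close to the limit, and by CPM with TMM factors its ratio of 1.36 was below it. Its genotype means were 3171 ± 2166 in TG and 2864 ± 624 in WT (SD, n = 2).

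TRINITY_DN22175_c0_g1 had the largest CPM ratio among the TG 2-high genes. Its value was 1.33 in TG 1 and 20.7 in TG 2, against 14.9 in WT 1 and 17.1 in WT 2. Its reads numbered 48 and 781 in TG 1 and TG 2, and 434 and 657 in WT 1 and WT 2. TG 1 alone stood apart in this gene, since TG 2 was within 1.5-fold of both WT libraries. The log2 ratio of TG 2 to TG 1 was 3.95 by value and 4.16 by CPM, with a counting interval of 3.74 to 4.61.

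**Figure D2:**
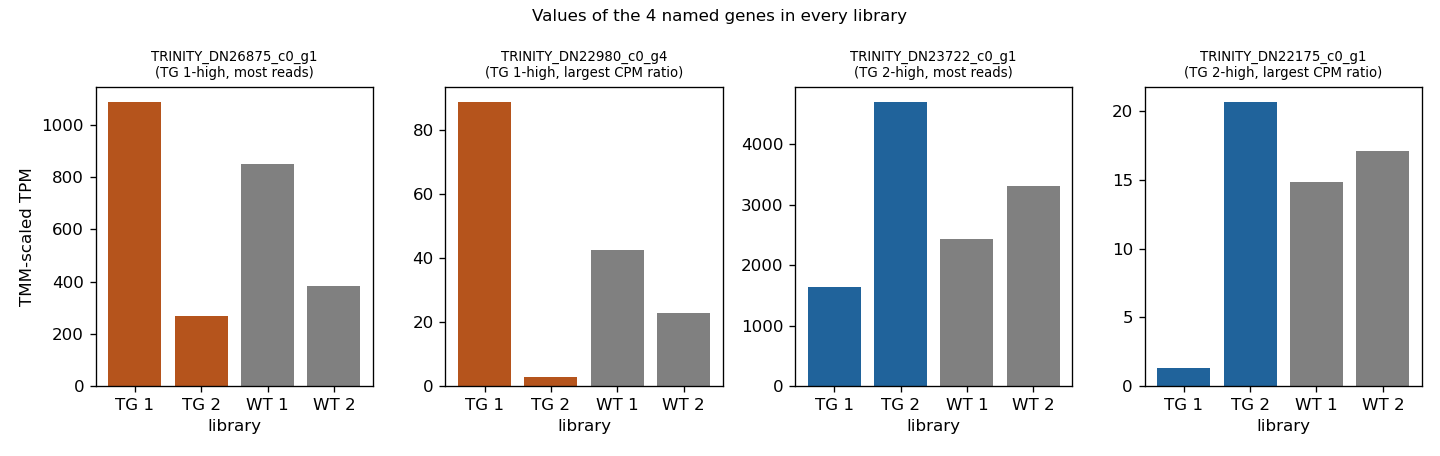
TMM-scaled TPM (vertical axis, from 0, a separate scale in each panel) of the 4 genes named in the text in TG 1, TG 2, WT 1 and WT 2. Each bar is a single library. In all 4 panels the WT bars lie between the TG bars.

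The genes nearest the limit are given by value and were chosen after their values were seen. The TG 1-high gene just inside had values of 24.6 and 8.67 in TG 1 and TG 2, against 9.78 and 9.56 in WT 1 and WT 2, and the one just outside had 14.8 and 5.22, against 10.6 and 7.95. The TG 2-high gene just inside had 2.52 and 7.15, against 7.75 and 7.36, and the one just outside had 7.36 and 20.8, against 7.18 and 7.71. Their log2 ratios were -1.501 and -1.499 for TG 1-high, and 1.506 and 1.498 for TG 2-high. The far end was longer among the TG 1-high genes, with 17 genes over 8-fold apart, than among the TG 2-high genes, with 4. In the 17 genes the median value was 49.97 in TG 1 and 2.70 in TG 2, against 27.5 in WT 1 and 13.4 in WT 2.

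Counting error was small beside these ratios. The lowest count in any library was 23 reads, and the counting interval of the TG ratio by CPM had a median width of 0.48 and a largest width of 1.30 on the log2 scale. It lay wholly beyond 2-fold in 270 of the 293 genes, a count partly set by choosing genes for a large TG ratio. The ratio by CPM had the same sign as that by value in 292 genes, and the 2 measures were more than 1 log2 unit apart in 9. The exception in sign, picked out after its values were seen, was a gene of 15 isoforms with a value of 24.5 in TG 1 and 7.81 in TG 2, against 17.7 in WT 1 and 14.1 in WT 2. Its reads numbered 135 and 188 in TG 1 and TG 2, and 535 and 549 in WT 1 and WT 2, so its reads were higher in TG 2 while its length-corrected value was higher in TG 1. There is a single library on each side of these ratios, so no replicate check of them exists.

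The WT values entered the choice of genes through the WT mean, the read minimum and the highest-to-lowest CPM. No limit was set on the ratio of the WT libraries to each other. That ratio pointed the same way as the TG ratio in 222 of the 293 genes (75.8%). Among the TG 1-high genes WT 1 exceeded WT 2 in 150 of 187 (80.2%), against 51.5% of the 11746 genes that met the read and mean conditions and were not split. Their median log2 ratio of WT 2 to WT 1 was -0.52, with quartiles at -0.86 and -0.08, against a median of -0.01 in the genes that were not split. A difference of more than 2-fold with WT 1 higher was found in 43 of the 187 (23.0%), against 1.19% of the genes not split, and one with WT 2 higher in 2.

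Among the TG 2-high genes WT 2 exceeded WT 1 in 72 of 106 (67.9%), against 48.5% of the genes not split. The median log2 ratio of WT 2 to WT 1 was 0.30, with quartiles at -0.18 and 0.62. WT 2 was more than 2-fold higher in 9 of these genes (8.49%), against 0.95% of the genes not split. WT 1 was more than 2-fold higher in 7 (6.60%), against 1.19%. The larger WT differences thus went in either direction. The WT ratio was the smaller one in size in 289 of the 293 genes, which largely follows from choosing genes by a large TG ratio. Of all 12039 genes, 0.615% had a WT log2 ratio beyond 1.5. The WT libraries were within 1.5-fold of each other in 93 of the TG 1-high and 61 of the TG 2-high genes. Such closeness was more common in the genes not split, where the upper quartile of the fold between the WT libraries was 1.29. That quartile was 1.92 in the TG 1-high and 1.79 in the TG 2-high genes. The genes share the same 4 libraries, so these shares are a description, and the labels do not say what libraries of equal number have in common.

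**Figure D3:**
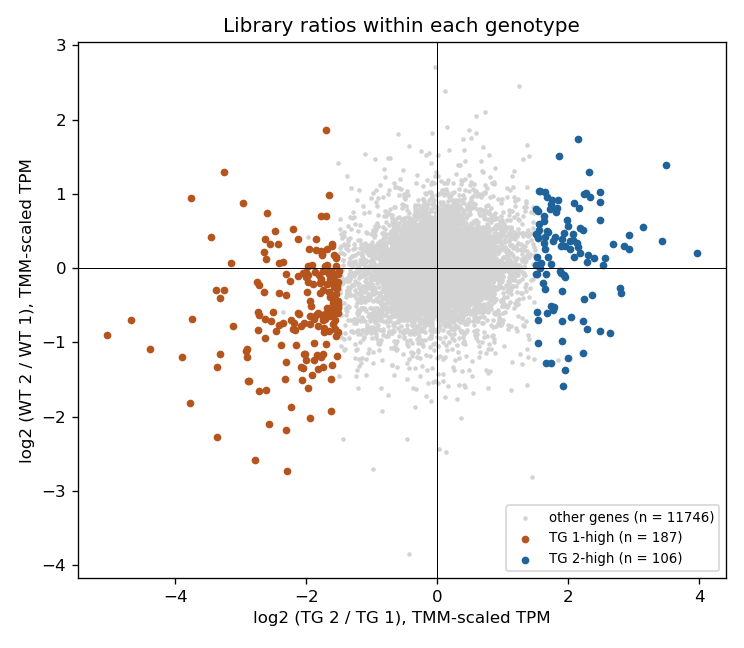
Log2 ratio of WT 2 to WT 1 (vertical axis) against log2 ratio of TG 2 to TG 1 (horizontal axis), both from TMM-scaled TPM, for the 293 split genes and the 11746 other genes that met the read and mean conditions. Each point is a gene. Most TG 1-high genes (150 of 187) lie below the horizontal line at 0, and most TG 2-high genes (72 of 106) lie above it.

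The order of the libraries from high to low gave the same picture. In 100 of the 187 TG 1-high genes it was TG 1, WT 1, WT 2, TG 2, and in 26 the WT libraries changed places. In 46 of the 106 TG 2-high genes it was TG 2, WT 2, WT 1, TG 1, and in 28 the WT libraries changed places. Across genes, Pearson's r between the TG and WT ratios was 0.46 (Spearman's rho 0.44) over the 293 split genes and 0.19 (rho 0.13) over the 12039 genes. Within a direction it was weak, at 0.16 over the TG 1-high and 0.07 over the TG 2-high genes. These are correlations over genes of the same 4 libraries, which are not independent. Keeping only genes at both ends of the TG ratio also raises r, so 0.46 and 0.19 cannot be compared as strengths.

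The shift of the WT ratio extended below the limit of 1.5. Genes with a TG log2 ratio under -2 had a median WT log2 ratio of -0.71 (n = 81), and those between -2 and -1.5 had -0.32 (n = 111). From -1.5 to -1 the median was -0.20 (n = 318), and between -0.5 and 0.5 it was near 0. On the other side the median was 0.12 from 1 to 1.5 (n = 269), 0.30 from 1.5 to 2 (n = 66) and 0.30 above 2 (n = 43). The shift on the TG 1-high side was thus the larger one beyond 2.

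**Figure D4:**
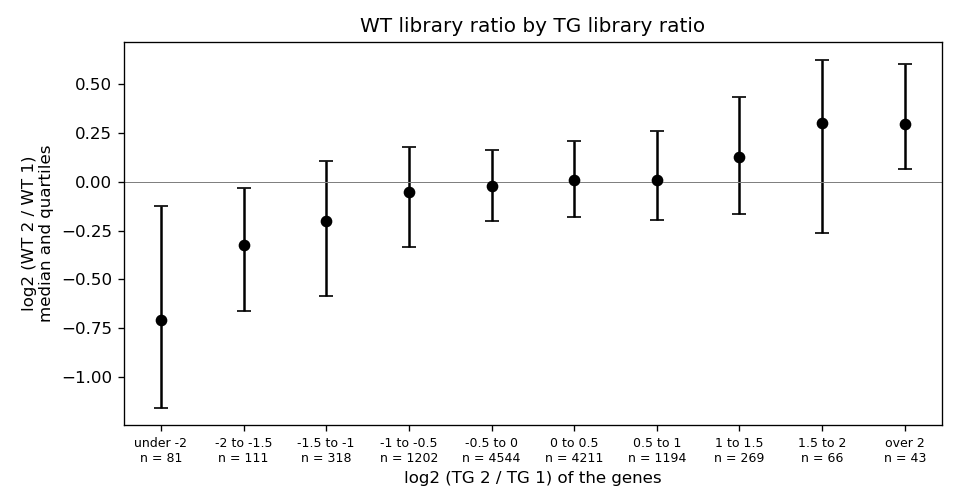
Median and quartiles of the log2 ratio of WT 2 to WT 1 (vertical axis) in bins of the log2 ratio of TG 2 to TG 1 (horizontal axis), over the 12039 genes that met the read and mean conditions, with the number of genes under each bin. The medians go from -0.71 in the lowest bin to 0.30 in the highest.

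Splits of this size were fewer between the WT libraries. With the roles of the genotypes exchanged, the same conditions chose 293 of 12039 genes (2.43%) in TG and 47 of 12087 (0.389%) in WT. Of the 47 genes, 31 were higher in WT 1 and 16 in WT 2. The lists shared 14 genes, which are 4.78% of the TG list and 29.8% of the WT list. In 13 of the 14 the direction was the same, with library 1 higher in both genotypes in 11 genes and library 2 higher in both in 2. Over the 12039 genes a log2 ratio beyond 1 was found for 888 genes in TG and 313 in WT, and one beyond 2 for 124 in TG and 19 in WT.

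The share of reads held by the split genes is given as a description, since the choice of genes fixes its difference between the TG libraries, and the intervals cover counting error only. The TG 1-high genes took 2.426% of the reads in the isoform table in TG 1 (95% interval 2.419% to 2.434%, exact Clopper-Pearson) and 0.6955% in TG 2 (0.6914% to 0.6996%). In WT they took 1.623% in WT 1 (1.616% to 1.63%) and 1.099% in WT 2 (1.095% to 1.104%). The TG 2-high genes took 0.4289% in TG 1 (0.4258% to 0.432%) and 1.664% in TG 2 (1.658% to 1.671%). Their share was 1.031% in WT 1 (1.025% to 1.036%) and 1.103% in WT 2 (1.098% to 1.108%). A few genes carried much of the TG 2-high share, with the 5 most read genes holding 64.0% of the reads of the TG 2-high genes and 23.3% of those of the TG 1-high genes.

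All levels of abundance were represented. Split genes made up 3.004% of 2064 genes with a mean value under 10, 2.09% of 8983 genes from 10 to 100, 4.07% of 958 genes from 100 to 1000, and 4 of the 34 genes of 1000 or more. Of these 4 genes, 3 were TG 2-high. Those 3 are not all separate observations, since some share a read cluster, described below. The median mean value was 24.7 in TG 1-high and 18.9 in TG 2-high genes, against 22.6 in the genes not split. Reads per unit of value, a measure of transcript length relative to the median of the 12039 genes, had a median of 0.974 in TG 1-high and 0.871 in TG 2-high genes, against 1.002 in the genes not split.

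The 293 genes came from 275 read clusters. Several split genes fell in 16 clusters, and in 15 of these all of them pointed the same way. One cluster, chosen after its values were seen, held 3 TG 2-high genes, among them the second most read of that direction. The first had a value of 1547 in TG 1 and 5313 in TG 2, against 3558 in WT 1 and 2481 in WT 2. The second had 566 in TG 1 and 2668 in TG 2, against 2399 in WT 1 and 1798 in WT 2. The third had 14.5 in TG 1 and 80.6 in TG 2, against 61.5 in WT 1 and 34.3 in WT 2. In all 3 genes WT 1 exceeded WT 2, the opposite of most TG 2-high genes, and TG 1 was the lowest library. Another cluster held 3 TG 1-high genes, with values of 49.3 to 90.1 in TG 1 and 8.92 to 13.7 in TG 2, against 22.7 to 84.7 in WT 1 and 12.6 to 54.6 in WT 2. Genes of a read cluster can share sequence and reads, so they are not separate observations.

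Other genes of the same clusters leaned the same way on the TG 1-high side. Of 105 such genes that met the read minimums, 78 (74.3%) were higher in TG 1, against 51.7% of all 15048 genes. The limit of 1.5 was passed by 15 in that direction and by 1 in the opposite one. Of all 15048 genes, 301 with genotype means within 2-fold and 269 with means further apart passed it in either direction. Beside the TG 2-high genes, 28 of 43 (65.1%) were higher in TG 2, against 48.3% of all, with a median log2 ratio of only 0.07, and 2 passed the limit.

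The isoforms of a split gene make up the reads behind its ratio, so their direction largely follows from the choice of genes and is given as a description. Of the 293 genes, 187 had at least 2 isoforms with 50 or more TG reads each, and in 172 of these (92.0%) every such isoform had the direction of its gene. The 15 exceptions were 14 TG 1-high genes and 1 TG 2-high gene. In TRINITY_DN26875_c0_g1 the main isoform had 23151 reads in TG 1 and 5039 in TG 2, against 11928 in WT 1 and 7044 in WT 2. The second isoform had 13965 and 3981, against 8657 and 5208. The main isoform made up 62.3% and 55.8% of the gene's reads in TG 1 and TG 2, against 56.9% and 56.5% in WT 1 and WT 2, so the makeup changed little while the level differed 4.06-fold between the TG libraries.

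**Figure D5:**
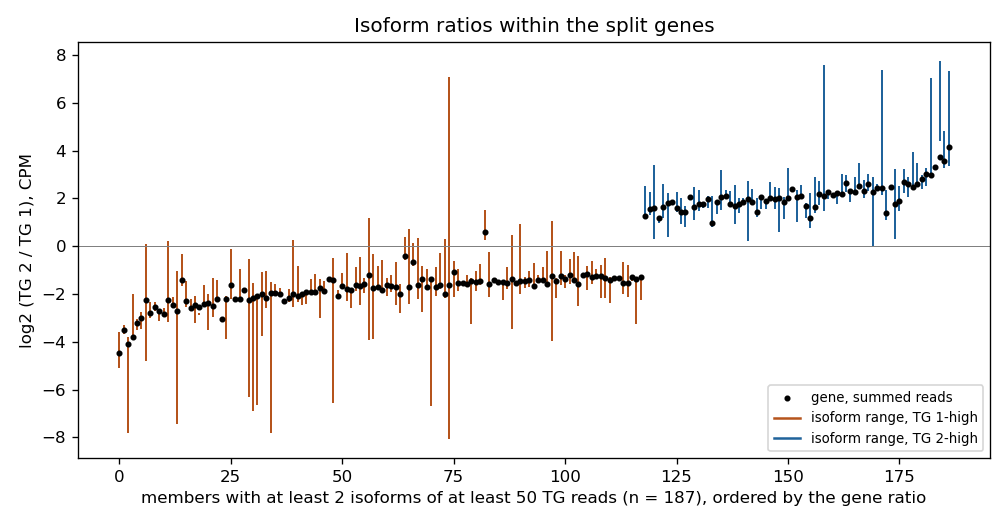
Log2 ratio of TG 2 to TG 1 by CPM (vertical axis) for the 187 split genes with at least 2 isoforms of 50 or more TG reads, ordered by the gene's ratio of TMM-scaled TPM (horizontal axis). Lines span the lowest to the highest isoform of a gene, computed with 0.5 reads added, and black points give the ratio of the summed reads. In 172 genes the line stays on the side of its gene.

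The isoform makeup was compared between libraries, without a test. Among genes with several isoforms, the median share of reads that would have to change isoform to turn one library into the other was 5.98% between TG 2 and TG 1 for TG 1-high genes and 6.79% for TG 2-high genes, against 6.64% for the genes not split. The same measure between genotypes was 15.5% for TG 1 against WT 1 and 17.2% for TG 2 against WT 2 in TG 1-high genes. It was 20.5% and 19.99% in TG 2-high genes, against 18.2% and 18.4% in the genes not split. The main isoform was the same in TG 1 and TG 2 in 223 of 247 split genes (90.3%), against 92.0% of 10529 other genes. Shifts of over 25% between the TG libraries were found in 8.91% of the 247 split genes, against 3.48% of the others. TRINITY_DN22175_c0_g1 was one of them. Its main isoform of WT took 30.4% of its reads in TG 1 and 49.4% in TG 2, against 89.7% in WT 1 and 84.1% in WT 2, and the total in TG 1 was 48 reads. A single isoform was assembled for 15.0% of the split genes and 9.97% of the others.

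A test of TG against WT over all genes called few of the split genes. The edgeR quasi-likelihood test on summed reads called 9100 of 29263 genes at an adjusted p under 0.05 (31.1%), and 3 of the 293 split genes were among them. The count over all genes was 5708 without WT 1 and 3918 without WT 2. All 3 split genes were TG 1-high, and 1 was called higher in TG and 2 lower. Their fitted log2 changes of TG over WT were 1.96, -1.26 and -1.75. The choice of genes, both by the genotype means and by the TG ratio, bears on the count of 3, and nothing is read from it. The values of 1 of the 3 are those of the gene of 15 isoforms given above. The other 2 are also given after their values were seen. The first had 13.7 in TG 1 and 4.81 in TG 2, against 9.62 in WT 1 and 8.44 in WT 2. The second had 39.2 in TG 1 and 11.9 in TG 2, against 49.3 in WT 1 and 48.8 in WT 2. These values are TMM-scaled TPM, while the test used summed reads, so the fitted changes can differ from them. At isoform level the test called 45.4% of 71940 isoforms and 253 of 866 isoforms of split genes, and over all isoforms it called 17528 without WT 1 and 15749 without WT 2. At least 1 isoform was called in 127 of the 293 genes (43.3%), with a background of 61.4% of genes. Isoforms called both ways occurred in 46 of the 293 genes (15.7%), close to the background of 16.5%.

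Each TG library taken alone gave another result for these genes. In a fit of TG 1 against WT, without TG 2, 60 TG 1-high genes were called higher and 2 lower, while 37 TG 2-high genes were called lower and 0 higher. In that fit 12.2% of all genes were called higher and 13.7% lower. With TG 2 against WT, without TG 1, 56 TG 1-high genes were called lower and 0 higher, while 26 TG 2-high genes were called higher and 1 lower, beside 11.5% of all genes called higher and 10.8% lower. In TG 1-high genes the median fitted log2 change of TG over WT was 1.13 with TG 1 alone and -0.997 with TG 2 alone. In TG 2-high genes it was -1.14 with TG 1 alone and 0.57 with TG 2 alone. In such a fit the lone TG library is assumed to vary like the WT libraries. The choice of genes also bears on the signs, so nothing is read from these counts and medians. For TRINITY_DN22980_c0_g4 the fitted log2 change of TG over WT was 1.47 with TG 1 alone, -3.54 with TG 2 alone and 0.53 with both.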

How the data were processed

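Leaf RNA was sequenced from 2 TG and 2 WT libraries prepared, as the labels' protocols state, with the SMARTER kit for mRNA. Bowtie2, RSEM and DESeq2 appear, without versions or roles, in the submitters' processing notes. How the assembly was made, the build and the use of strand are not given in the sources used here, so overlapping, antisense or near-identical genes may share reads.

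The gene signal deposited by the authors is TPM times a TMM factor per library. The isoform table deposited by the authors holds RSEM expected counts, which were summed per gene, and rounded for the count tests. Of the 4 tables, 3 end inside a row, which was left out. The isoform table used here holds 184761 isoforms and 97.6% to 97.9% of the reads, so sums of some genes may lack an isoform. The deposited gene table called counts holds the TPM signal scaled to each read total, and served only for these totals.

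Planned count tests were edgeR 4.0.16 quasi-likelihood (R 4.3.3, TMM factors, filterByExpr with a minimum count of 10, two-sided, Benjamini-Hochberg over all features, 0.05 called). Alternatives were DESeq2 1.42.0 and limma 3.58.1. Only the edgeR test was run on simulated data. The genes, limits and tests were chosen with earlier results of these data known. Named genes are, per direction, the gene with the most reads and the gene with the largest CPM ratio. A ratio of library 2 to library 1 has 1 library a side and no test.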

Additional observations from a re-analysis of the deposited data

How the results depend on the processing

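Of 86 alternative values, 62 kept their size (within 1.5 times for counts, within the SD over the 12039 genes for log2 ratios), and 24 moved. For the WT log2 ratio that SD was 0.393, wider than the TG 2-high median of 0.30, so a kept size says little there. Most of the 86 values are counts, which have no sign. The balance of directions turned round with CPM, to 143 TG 1-high and 171 TG 2-high genes. Every median WT ratio kept its sign in the settings run, from -0.72 to -0.46 for TG 1-high and from 0.26 to 0.31 for TG 2-high genes. Without WT 1 the split genes numbered 233, and without WT 2 337. A log2 limit of 1 gave 752 genes (409 TG 1-high, 343 TG 2-high), a limit of 2 gave 123 (80 and 43), and genotype means within 1.5-fold gave 170 (104 and 66). These changes follow from the limits. Centring and CPM with TMM factors, both added after seeing the data, gave 289 and 291 genes, of which 285 and 218 were among the 293. The split genes called between genotypes, 3 with edgeR (1.02%, beside 31.1% of all genes), became 72 with no filter (24.6%, beside 17.6%). They numbered 9 with DESeq2 (3.07%, beside 11.3%) and 0 with limma (beside 26.2%), where 0 also had an unadjusted p under 0.05. Their called isoforms became 470 with no filter (35.3%, beside 26.2% of all isoforms). For these shifts the cause was not tested. With any 1 library left out, gene calls numbered 3918 to 8073, 2 to 99 of them split genes, and isoform calls 15749 to 26515, 143 to 361 of them in split genes. The ratio of TRINITY_DN22175_c0_g1 became 3.22 on log2(value + 1). With the replicate number as a block, 10287 genes (35.2%) and 31 split genes (10.6%) were called. At isoform level this fit called 22489 isoforms (31.3%), and 237 of the isoforms of split genes (27.4%). What equal numbers have in common is not in the labels. Libraries of equal number deviated from their group means with r = 0.195 over 29263 genes, in only 2 pairs, and the block was not taken as the design.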
